A study of Mus musculus with 9 samples.

Results

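The comparison described here set a pool of mouse embryos conditionally deleted for beta-catenin (gene Ctnnb1) against a pool of embryos carrying 1 floxed and 1 deleted allele of that gene, array by array. A probe set entered when the platform annotation gave it 1 gene symbol and its signal lay above the pooled median of its array design in both pools. That median is called the floor and was 57.3 on design A, 90.0 on design B and 80.9 on design C. The floor is a rule for setting weak signals aside and not a limit of detection. Of 36899 probe sets, 12356 entered, and they covered 8877 of the 15965 genes named on the arrays. Design A held 4922 of these probe sets, design B 4504 and design C 2930.

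The study profiled total RNA of whole embryos at embryonic day 7.5, when gastrulation lays down the germ layers, on 9 one-colour Affymetrix arrays of the murine U74 version 2 family. Its 3 pools were each hybridised once to each of 3 designs (A, B and C), so 6 arrays bear on this comparison. In the knockout pool, of about 50 embryos, Cre recombinase expressed under the control of cytokeratin 19 deleted beta-catenin. The control pool was labelled as floxed/deleted. A further pool, labelled as wild type/floxed, carried 1 wild-type and 1 floxed allele. Its values stand beside the others here as a measure of how far a pair of control pools differed. The floxed/deleted arrays enter that comparison and the knockout comparison with opposite signs, so these comparisons are not independent. The labels state neither whether the control pools carried Cre nor how many embryos they held, and embryos with floxed and deleted alleles that also carried Cre would have the genotype of the knockout. The deletion is limited to cells in which the Krt19 promoter has been active, so each knockout embryo may hold cells with and without beta-catenin. There was 1 pool on each side, with no replicate check, and no difference below carries an error or a p-value.

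Beta-catenin has 2 roles in the early embryo. It links cadherins to the cytoskeleton at cell junctions, and on arrival of a Wnt ligand it escapes degradation, enters the nucleus and binds Tcf/Lef factors to switch on target genes. In the gastrulating mouse embryo canonical Wnt signalling is known for its part in the primitive streak, in mesoderm and in posterior patterning. The visceral endoderm, an absorptive epithelium that covers the embryo, takes up and digests maternal proteins and secretes apolipoproteins.

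Trimmed means, which leave out the lowest and highest 2% of values, ran from 149.7 to 150.0 over the arrays, and the arrays of a design were scaled to the same one. Across all probe sets the knockout and floxed/deleted arrays had Spearman correlations of 0.871 (A), 0.751 (B) and 0.621 (C), a description of arrays that share their probes. The standard deviation over members of the log2 difference between these pools was 0.42, 0.54 and 0.77 for the respective designs, and between the floxed/deleted and wild type/floxed pools it was 0.40, 0.54 and 0.79. The ratio of the 5′ to the 3′ beta-actin probe set, a sign of RNA integrity, was lower in the knockout than in the floxed/deleted pool on each design, at 0.570 against 0.655, 0.608 against 0.685 and 0.613 against 0.698. The same ratio for Gapdh did not share that order, at 1.09 against 1.07 on A, 0.919 against 0.900 on B and 0.878 against 0.912 on C. The part of either in the differences below was not tested. The designs shared 66 control probe sets, and for the 9 with a mouse gene symbol that lay above the floor in both pools on every design, the log2 difference between the pools varied over the designs by a median of 0.39 and by at most 0.52.

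The targeted gene and the gene whose promoter drove Cre were looked at first. The Ctnnb1 probe set gave a scaled signal of 1377, 1508 and 1773, in the order knockout, floxed/deleted and wild type/floxed, which is kept for every set of 3 signals below, in brackets where several sets follow each other. The knockout was 1.09-fold lower than the floxed/deleted pool. The sources used here do not place the probes relative to the deleted exons, so this value checks no label. Krt19, an epithelial keratin, gave 232, 97.5 and 119 and was 2.38-fold higher in the knockout, while its other probe set was below the floor in each pool. Whole embryos were hybridised, so for every gene here fewer cells of a type and less RNA per cell cannot be told apart.

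A gene's value is the mean log2 difference over its member probe sets on designs A and B, or on C where it has none there. At a threshold of 1.5-fold, 963 genes (10.8% of 8877) were higher and 940 genes (10.6%) lower in the knockout. The corresponding counts for floxed/deleted against wild type/floxed were 908 higher and 857 lower of 8883 genes, so about as many genes crossed the threshold between the control pools, and these are the figures against which the counts of list members have to be read. With the arrays brought to equal medians instead of equal trimmed means, the all-gene median moved by 0.11 on the log2 scale and the counts became 1294 higher and 735 lower, which turned a split of 50.6% to 49.4% into one of 63.8% to 36.2%. At 2-fold, 66 probe sets of design A were higher (1.34%) and 65 lower (1.32%). On design B 139 were higher (3.09%) and 160 lower (3.55%), and on design C 262 were higher (8.94%) and 258 lower (8.81%). Designs A and B alone gave 675 genes higher and 634 lower at 1.5-fold.

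Asking every member probe set of a gene to pass 1.5-fold in 1 direction left few genes. Sets that were not above the floor in both pools were left out of this rule. Of 2528 genes with 2 or more member probe sets, 48 (1.9%) were higher and 36 (1.42%) lower throughout. Between floxed/deleted and wild type/floxed the counts were 26 higher and 27 lower of 2475 genes.

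**Figure D1:**
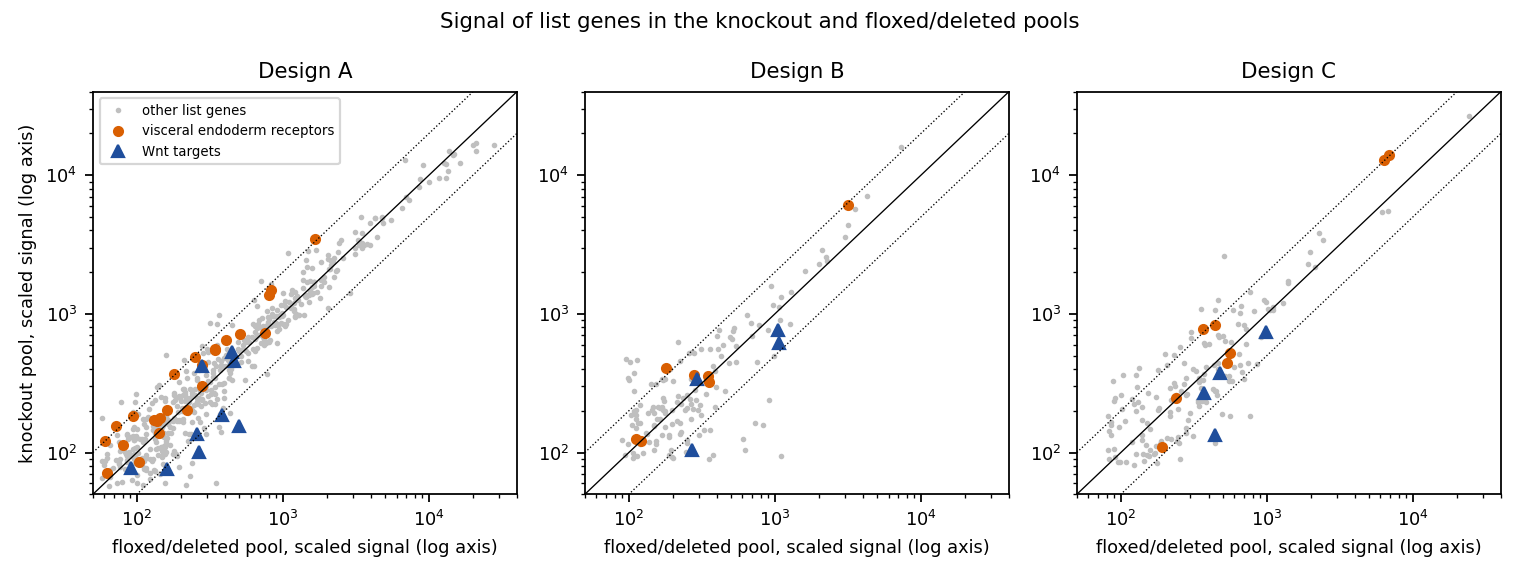
Scaled signal of list genes in the knockout pool (y axis, log scale) against the floxed/deleted pool (x axis, log scale), 1 panel per array design and 1 point per member probe set. The solid line marks equal signal and the dotted lines a 2-fold difference. Points for visceral endoderm receptors (orange) lie mostly above the solid line, those for Wnt targets (blue triangles) mostly below it, and the scatter widens from design A to design C.

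Among Wnt targets the genes of the posterior streak and paraxial mesoderm were the ones furthest below the floxed/deleted pool. Of 26 targets listed, 20 had a probe set and 12 were measured in both pools. The knockout was at least 1.5-fold lower in 5 of these 12 and higher in 1, against 10.6% and 10.8% of all genes. The list's median log2 difference was -0.47, beside 0.01 over all genes and -0.09 for the same list between floxed/deleted and wild type/floxed. Dll1, a Notch ligand of presomitic mesoderm, gave 155, 499 and 475 and was 3.22-fold lower in the knockout. Tbx6, a T-box factor required for paraxial mesoderm, gave 100.4, 268 and 307, 2.67-fold lower. For both genes the knockout stood apart from 2 control pools that lay close together.

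The feedback inhibitors and readouts of the pathway were less uniform. Nkd1, which restrains Dishevelled, gave 105, 272 and 371 on design B (2.59-fold lower) and 268, 373 and 141 on C (1.39-fold lower). Both sets had the knockout below the floxed/deleted pool, but on C the wild type/floxed pool was the lowest of the 3. Notum, a secreted enzyme that inactivates Wnt ligands, gave 616, 1067 and 1093, 1.73-fold lower. Ccnd1, which encodes cyclin D1, gave 136, 259 and 269.9 on design A and 135, 444 and 316 on C, 1.91-fold and 3.3-fold lower. A further Ccnd1 probe set on A, below the floor in the floxed/deleted pool, pointed the other way with 127, 42.8 and 154.

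Axin2, the scaffold most often used to read the pathway, had 2 member sets that disagreed. One gave 75.8, 160.2 and 94.6 and the other 337, 291 and 436. Lef1, a nuclear partner of beta-catenin, had 3 sets with (453, 459.8, 615), (185, 385, 317) and (769, 1057, 799.6), and its mean was 1.43-fold lower. Sp5 and Fgf8 were measured on design C alone and were 1.35-fold and 1.28-fold lower, short of the threshold. Id2, an inhibitor of basic helix-loop-helix factors, was the 1 target past it in the other direction, with 424, 278 and 301 (1.52-fold higher). Of the 4 Wnt targets with several member sets, the brightest 2 sets lay in the same direction in 3, each time lower.

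The 250 bases before each annotated start were searched for Tcf/Lef words (CTTTGAA and CTTTGAT as well as CTTTGTA and CTTTGTT on either strand) in RefSeq promoters of build GRCm38.p6. Of the 12 measured targets 9 had a promoter in the table, and 4 of the 9 held a word, namely Dkk1, Lef1, Mycn and Sp5. None of the 4 past the threshold that had a promoter (Dll1, Id2, Nkd1 and Tbx6) held one. Of the 7193 measured genes with a promoter 11.98% held one, and of all promoters 14.8%. A match describes the letters in that window alone.

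Wnt pathway components were not shifted as a group. Of 32 measured, 4 were higher and 5 lower, and the median was 0.02. The Tcf factors Tcf7l1 and Tcf7l2, which bind beta-catenin on DNA, and the co-activator Bcl9 had probe sets in accord. Tcf7l1, which holds target genes silent in the epiblast, gave 837, 448 and 443 in its brighter set and 534, 305 and 392 in the other, 1.87-fold and 1.75-fold higher in the knockout. Tcf7l2 gave 114, 65.6 and 55.9 on design A and 185, 103 and 89.3 on B, 1.74-fold and 1.79-fold higher. In each of these 4 sets the knockout was the highest pool.

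Receptors differed in both directions. Fzd5, a Frizzled receptor, gave 689, 399.6 and 273 and was 1.72-fold higher, whereas Fzd6 gave 146, 361 and 254 and was 2.46-fold lower. Fzd10 gave 121, 242 and 242 on design C, 2-fold lower. Bcl9, which docks on beta-catenin, gave (279, 456, 382) and, on C, (288, 431, 446), 1.63-fold and 1.5-fold lower. Ctnnbip1, an inhibitor of the binding of beta-catenin to Tcf, gave 556, 311 and 533, where the wild type/floxed pool lay close to the knockout. At the junctions, 1 of 11 measured catenins, cadherins and desmosomal genes was higher and 0 were lower, with a median of -0.01. That gene was the desmosomal cadherin Dsc2, with 559, 362 and 409.8. Jup, which encodes plakoglobin, the closest relative of beta-catenin, gave 130.5, 91.1 and 87, 1.43-fold higher, although its set on design C was below the floor in the knockout.

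Of the 37 lists, that of Hox and posterior genes lay furthest below 0, with a median of -0.71, beside 0.24 for the same list between floxed/deleted and wild type/floxed. Of 8 measured members 5 were lower and 0 higher. Against wild type/floxed the median of this list was -0.30, with 3 of 8 lower, and the lists of Wnt targets (-0.49), node genes (-0.35) and retinoic acid genes (-0.33) lay below it. Hoxb1, an anterior Hox gene of the late streak, gave 83.6, 240.3 and 326, 2.88-fold lower. Hoxb2 gave 164, 734 and 500.1, 4.48-fold lower, the widest of the list. In these 2 genes the knockout was below both other pools by more than the others differed.

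All 8 measured members of that list, Hoxb1 and Hoxb2 included, rested on 1 probe set each. Hoxa4 gave 336, 553 and 552, 1.65-fold lower, on a probe set with an incomplete or shared probe choice. Hoxb4 gave 231, 381 and 235 and Evx1, a homeobox gene of the posterior streak, 92.2, 149.7 and 97.5. In Hoxb4 and Evx1 the floxed/deleted pool was the high one and the wild type/floxed pool lay near the knockout. Hoxb6 and Hoxc4, at 0.32 and 0.07 on the log2 scale, were above 0, and of the 26 listed genes with a probe set, 15 were above the floor in neither pool.

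Primitive streak and nascent mesoderm genes were lower as far as they passed the threshold, with 6 of 18 measured members lower, 0 higher and a median of -0.33 (-0.07 between the control pools). Against wild type/floxed the same list had members on both sides, with 6 lower and 3 higher of 18 and a median of -0.18. Foxc2, a forkhead factor of paraxial and cardiac mesoderm, gave 68.2, 233 and 323, 3.41-fold lower. Foxf1, a forkhead factor of lateral and extraembryonic mesoderm, gave 187, 312 and 465, 1.67-fold lower. Fgf4, a growth factor of the streak, gave 248, 394 and 309.7, 1.59-fold lower. The knockout was the lowest pool in all 3.

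Fgfr1, the receptor through which Fgf signals act in the streak, had 3 member sets with (419, 635, 778), (432, 858, 595) and (368, 373, 384). They were 1.51-fold, 1.98-fold and 1.01-fold lower. Of the 18 measured members 13 were below 0 and 5 above it. Members short of the threshold lay on both sides, with Mesp2 at -0.42, Fgf8 at -0.36 and Lhx1 at 0.38 on the log2 scale. Mesp1 gave 345, 427 and 310.0 and the T-box factor Eomes 131, 98.6 and 67.5, 1.24-fold lower and 1.33-fold higher.

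In the paraxial mesoderm and Notch list 4 of 13 measured members were lower and 0 higher, with a median of -0.42 beside 0.07 between the control pools. Against wild type/floxed 3 of 12 were lower and 2 higher, with a median of -0.21. Dll1 and Tbx6 are 2 of the 4 lower than floxed/deleted. Notch1, a receptor for Dll1, gave 139.6, 374 and 316, 2.68-fold lower. Hes5, a Notch target, gave 439, 747 and 288, so that the wild type/floxed pool was below the knockout. Hes1, Lfng and Rbpj, further parts of the pathway, were within 0.11 of 0 on the log2 scale.

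Few cardiac and node genes were measured. Of 12 cardiac genes 2 were higher and 2 lower, with a median of -0.14 (-0.16 between the control pools). Myl7, an atrial myosin light chain, gave 139, 213 and 213, 1.54-fold lower. Smarcd3, which encodes a subunit of the BAF chromatin remodeller, had sets that disagreed, with (126, 608, 392), (175, 111, 233) and, on C, (183, 217, 403). Of 4 node genes, 2 were lower, and the median was -0.52. Lefty1, a Nodal inhibitor, gave 73.6, 132 and 135 on A and 1085, 1016 and 503 on C, which disagreed in direction.

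Neural and retinoic acid genes split. Of 10 measured neuroectoderm genes 4 were lower and 2 higher, with a median of -0.21. Irx3, a homeobox gene of the neural plate, gave 137, 296 and 343 (2.16-fold lower), and Nes, the intermediate filament nestin, gave 191, 374 and 408 (1.96-fold lower). The retinoic acid binding proteins Crabp1 and Crabp2 gave (72.9, 156, 222) and (121, 224, 208), 2.14-fold and 1.86-fold lower. In these 4 genes the knockout was below both other pools. The receptor genes opposed each other, with Rara at 499.5, 991 and 864 (1.98-fold lower) and Rarb, on design C, at 665, 304 and 515 (2.19-fold higher). The members higher in the knockout were Sox2 and Pou3f1, which the epiblast also expresses.

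Epiblast genes were the list with the highest median, 0.63 beside 0.01 between the control pools. All 12 measured members were above 0, 7 were at least 1.5-fold higher and 0 lower. A further 2 members were above the floor in 1 pool only and are outside these counts. Of them Zic2 was above it in floxed/deleted and just below it in the knockout, with 57.2, 136 and 11.4. Sox2, a core factor of pluripotent and neural cells, gave 233, 77.8 and 107, 2.99-fold higher. Utf1, a chromatin-bound protein of pluripotent cells, gave 2736, 1079 and 795 on design A, 2.53-fold higher, whereas a dim set on C gave 97.7, 126 and 109. Slc7a3, a transporter of cationic amino acids, gave 977, 362 and 255 on A (2.7-fold higher) and 241, 338 and 369 on C. In both genes the brighter set carried the difference and the dimmer one pointed the other way. Of the 6 members with several sets, the brightest 2 lay in the same direction in 3, each time higher.

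The de novo DNA methyltransferases had sets that lay in the same direction, though not all past 1.5-fold. Dnmt3b gave 7062, 4290.0 and 3339.6 in its brighter set and 4402, 3173 and 2904 in the other, 1.65-fold and 1.39-fold higher. Dnmt3a gave (386, 218, 255), (202, 144, 162) and (514, 199, 317) on the 3 designs, 1.77-fold, 1.4-fold and 2.58-fold higher. In each of these sets the knockout was the highest pool. The POU factor Pou3f1 gave 229, 127 and 70.4, with the control pools themselves unlike. Pou5f1, which encodes Oct4, and Nanog differed little, with (1445, 1203, 1107) and (163, 162, 109). Trap1a, known from a tumour antigen of the mouse, gave 505, 159 and 300.0, 3.17-fold higher.

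Visceral endoderm receptors and brush border genes were higher almost throughout. Of 22 measured members 21 were above 0, 11 at least 1.5-fold higher and 0 lower, and the median was 0.54, beside -0.11 between the control pools. Cubn and Amn encode the 2 parts of the receptor that takes up the vitamin B12 carrier and other proteins. Cubn gave 3459.9, 1655 and 2308, 2.09-fold higher. Amn gave 6089, 3153 and 3272 on design B and 12926, 6390.2 and 8803 on C, 1.93-fold and 2.02-fold higher. The knockout was the highest pool in all 3 sets. Of the 8 members with several sets, the brightest 2 lay in the same direction in 5, higher in 4 and lower in 1.

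The scavenger receptor Lrp2 and its adaptor Dab2 were nearer the threshold. Lrp2, or megalin, had a set with 367, 180.4 and 223 (2.04-fold higher) and another with 323, 355 and 347 that lay the other way. Dab2 was higher in each of 4 sets, by 1.41-fold, 1.25-fold, 1.23-fold and 1.89-fold. Muc13, a membrane mucin of absorptive cells, gave (184, 93.8, 86.1) and (121, 60.5, 57.2), 1.96-fold and 2-fold higher.

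Transporters followed. Slc13a4, a sulfate transporter, was bright on design C at 14064, 6863 and 6241, 2.05-fold higher. Slc7a7, a subunit of an amino acid transporter, gave 1361, 799 and 844, 1.7-fold higher. Slc16a1, a lactate transporter, gave 154, 72.5 and 175, 2.13-fold higher than floxed/deleted, but the wild type/floxed pool was the highest of the 3. Dpp4, a brush border peptidase, was the 1 member below 0, at -0.28 on the log2 scale.

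Lysosomal genes, which digest what these receptors bring in, were higher in 7 of 18 measured members and lower in 0, with a median of 0.43 beside 0.07 between the control pools. Of the 6 members with several sets, 3 had their brightest 2 in the same direction, each time higher. Lgmn, an asparagine endopeptidase, gave 491, 252 and 299, 1.95-fold higher. Among the cathepsins, Ctsz gave 524, 283 and 241 and Ctsb 2885, 1682 and 1879 in its brighter set. Ctsl gave 1478, 826 and 1313 and Ctsh 559, 340.4 and 499.7, and in these last 2 the wild type/floxed pool lay nearer the knockout than the floxed/deleted pool did. Lamp1, Ctsd and Gaa were within 0.19 of 0 and Psap, the precursor of the saposins, was at -0.42. Lgmn, Ctsl, Ctsh and Cd63 stand in both lists and were counted among the higher members of each. They make up most of the 7 here, so the counts of these lists are not separate. The other higher lysosomal members were Ctsb, Ctsz and Neu1.

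In all, 9 motifs were searched in the RefSeq promoters, and the E-box was picked for display after the others had been seen, because lysosomal genes are known to carry it. The E-box letters were CACGTG. Besides it and the Tcf/Lef words, the letters searched on either strand were CAAAGTCCA or CAAAGTTCA and CAAAGGTCA or CAAAGGCCA for DR1. AGATAA and TGATAA were taken for GATA factors, GTTAAT for HNF1 factors, and TATAAA for the TATA box. TTTATNA and TTTATTG were taken for Cdx factors, ATGCAAA and ATGCTAA for the octamer, and TGCACNC and TGCGCNC for the metal response element. Of the 36 measured receptor, brush border and lysosomal genes 31 had a promoter in the table, and 8 of them (25.8%) held an E-box within 250 bases before a start. Over the 7193 measured genes with a promoter the share was 10.2%, and over all 32851 promoters it was 6.02%. The 8 were Amn, Ctsd, Ctsl, Gaa, Lamp1, Lgmn, Slc16a1 and Slc39a8, and 4 of the 11 members past the threshold with a promoter were among them. The 1 start in the table for Ctsl may be an internal one, and without that gene 7 of 30 (23.3%) held an E-box, 3 of the 10 past the threshold among them. Amn and Lgmn are printed as examples from the receptors and the proteases, in the direction of transcription, with the E-box in capitals. The Amn stretch lies at chr12:111270846-111271095 on the plus strand and the Lgmn stretch, before 1 of its 2 annotated starts, at chr12:102439093-102439342 on the minus strand, both in GRCm38.p6.
Amn: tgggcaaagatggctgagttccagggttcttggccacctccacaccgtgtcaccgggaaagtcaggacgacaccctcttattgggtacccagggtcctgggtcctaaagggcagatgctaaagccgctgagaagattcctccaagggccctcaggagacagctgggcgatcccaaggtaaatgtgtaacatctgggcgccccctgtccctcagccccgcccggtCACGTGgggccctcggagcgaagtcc
Lgmn: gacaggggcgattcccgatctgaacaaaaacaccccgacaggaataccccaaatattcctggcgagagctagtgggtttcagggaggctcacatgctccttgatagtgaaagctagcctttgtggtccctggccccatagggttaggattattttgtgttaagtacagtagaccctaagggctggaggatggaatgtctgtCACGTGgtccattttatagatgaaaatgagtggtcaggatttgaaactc

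The secreted products of the visceral endoderm were mixed. Of 12 measured members 5 were higher and 2 lower, and the median was 0.45, beside -0.12 between the control pools. Apoa1, the main protein of high density lipoprotein, gave 12794, 6809 and 6545 on design A and 16084, 7329.8 and 6811 on B, 1.88-fold and 2.19-fold higher. Apoa4 gave 851, 353 and 447, 2.41-fold higher, and Apom 1725, 713 and 832, 2.42-fold higher. Apoc2, the cofactor of lipoprotein lipase, gave 2859, 1489 and 1612, 1.92-fold higher. In these 4 genes the knockout lay above both control pools, which differed less from each other.

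Other secreted proteins differed less. Apoe, which was also bright, gave 11819.6, 9136 and 10236, and the thyroid hormone carrier Ttr gave 528, 451 and 465. They were 1.29-fold and 1.17-fold higher. Mttp, which loads lipid onto apolipoprotein B, gave (221, 119, 152) and (150.2, 111, 49.1). The 2 lower members were Serpinf2 and Shbg. Serpinf2 gave 78.2, 196 and 123 on A and 678, 473 and 135 on C, in opposite directions, and Shbg gave 74.3, 131 and 31.1, with the wild type/floxed pool the lowest.

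Summed over the brightest set of each measured member on design A or B, or on C where a gene had no member set on those, the receptors and brush border genes gave 32324 in the knockout against 17614 for floxed/deleted and 18606 for wild type/floxed. The secreted proteins gave 35976, 21355 and 21922, and the epiblast genes 20507, 13296 and 13139. Hox and posterior genes gave 1171, 2329 and 1972, and streak and nascent mesoderm genes 3563, 4725 and 4827. Such sums are weighted to their brightest members. Slc13a4 (measured on design C alone), Apoa1, Dnmt3b and Hoxb2 each made up a large part of the difference in their list. The lower sum of mesoderm markers and the higher sums of epiblast and visceral endoderm markers thus stood in the same pool, and the part of one in the other was not tested.

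**Figure D2:**
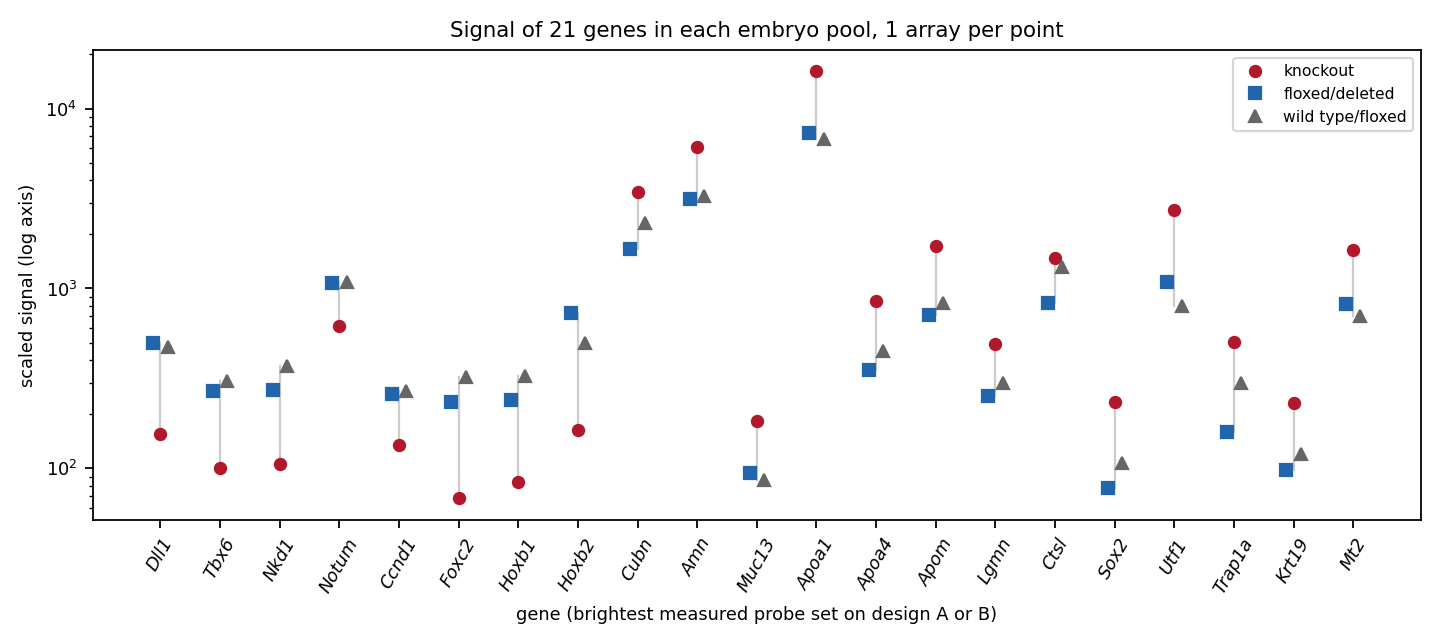
Scaled signal (log axis) of 21 genes in each pool, from the brightest member probe set on design A or B, 1 array per point. The 8 genes on the left are lower in the knockout (circles) than in both control pools. In the other 13 the knockout is the highest pool, by a small margin over wild type/floxed for Ctsl. The genes were picked by hand from those described in the text, so this split is not a result. Other sets of these genes, some of which point the other way, are not drawn.

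Endoderm transcription factors did not shift together. Of 9 measured, 3 were higher and 2 lower, with a median of 0.15. Rhox5, an X-linked homeobox gene, gave 1255, 631 and 472, 1.99-fold higher. Gata4 gave (106, 94.4, 155) and (310.4, 141, 244), and Gata6 148, 94.1 and 151, with the wild type/floxed pool in 2 of these 3 sets above the knockout. Hnf4a, a nuclear receptor of the visceral endoderm, gave 423, 379.6 and 469, 1.11-fold higher. Sox17, a factor of definitive endoderm, gave (225, 345, 291) and (190.0, 296, 316) from 2 overlapping sets, 1.53-fold and 1.56-fold lower. In the definitive endoderm list 3 of 12 measured members were higher and 1, Sox17, lower, with a median of 0.24. The higher ones, Krt19, Cldn6 and Epcam, are counted again among the keratin and tight junction genes below.

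Epithelial genes were higher where they passed the threshold. Of 14 measured keratin and tight junction genes 6 were higher and 0 lower, and the median was 0.36, beside -0.09 between the control pools. Cldn6, a claudin of the early embryonic epithelia, gave (1991, 1369.7, 1363) and (5708, 3511, 4105), 1.45-fold and 1.63-fold higher. Cldn7 gave 465, 211 and 289 on A and (2786, 1967, 1354) and (398, 311, 178) on C, higher in each. F11r, a junctional adhesion molecule, gave (1135, 664, 654) and (737, 301, 567), 1.71-fold and 2.45-fold higher. The keratins Krt8 and Krt18 did not share this, with (993, 1225, 1286) and (538, 558, 582). Epcam had 4 sets that disagreed, 2 higher and 2 lower. Of the 7 members of this list with several sets, 3 had their brightest 2 in the same direction, each time higher.

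Metallothioneins were also higher. Mt1 gave 865, 318 and 339 on A and 756, 517 and 743 on B, 2.72-fold and 1.46-fold higher, and on B the wild type/floxed pool was near the knockout. Mt2 gave 1643, 822 and 699, 2-fold higher. These small proteins bind zinc and are made by visceral endoderm as well as under metal stress. In the immediate early and stress list that holds them, 3 of 8 measured members were higher and 1 lower, with a median of 0.45. Heat shock proteins and chaperonins had 3 of 20 higher and 0 lower, with a median of 0.19 and -0.17 between the control pools. Tcp1 and Cct8, subunits of 1 chaperonin, gave (250.5, 147, 248) and (596, 352, 468), and their floxed/deleted value was the lowest of the 3.

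Of 36 measured Nodal, BMP and FGF genes, 2 were higher and 7 lower, with a median of -0.07. Fst, the activin antagonist follistatin, gave 154, 363 and 283, 2.36-fold lower. Msx2, a BMP target, gave 97.8, 186 and 161, 1.9-fold lower, and Etv4, an FGF target, gave 89.3, 129.6 and 125, with its other set 1.67-fold lower. In these sets the knockout was the lowest pool. Smad7, an inhibitor of the pathway, gave 154, 96.1 and 93.8, 1.6-fold higher. The BMP receptor Bmpr2 had opposing sets on B and C, with (123, 251, 237) and (1064, 441, 1343).

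Markers of other tissues that an embryo pool can hold were examined as well. Of 13 measured trophoblast and extraembryonic ectoderm genes 2 were higher and 3 lower (median -0.06), and the summed signal was 4571 in the knockout against 6540 for floxed/deleted and 6783 for wild type/floxed. Phlda2, an imprinted gene that limits placental growth, made up much of that difference at 1425, 2893 and 3267, 2.03-fold lower. Wnt7b, a ligand of the chorion, gave 134, 303 and 266, 2.27-fold lower. Of 7 measured erythroid genes none passed the threshold (median 0.22), and the globin gene Hba-a1 gave 114, 169 and 168. Of 8 endothelial genes 1 was higher and 2 lower (median 0.16).

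Parietal endoderm and basement membrane genes had 2 of 18 higher and 1 lower, a median of 0.13 and summed signals of 8769, 8337 and 9570. Sparc, a matrix protein abundant in parietal endoderm, gave 262, 98.3 and 167, 2.67-fold higher. Its neighbours in the list, Col4a1 and Lama1, chains of collagen IV and laminin, were at 0.05 and -0.15 on the log2 scale. Of 24 maternal decidua and immune genes with a probe set, 4 were measured, with 1 higher and 1 lower. Their summed signal was 969, 802 and 595. Of 7 further members above the floor in 1 pool only, those furthest above it were C1qb, Acta2 and Des. Each was above it in the knockout, with (115, 43.7, 30.6), (144, 39.7, 42) and (98.9, 57.3, 10.8). A sex difference between the pools could not be read, because 1 sex-linked gene was measured, Kdm5d, with 159, 105 and 116 on a set with shared probes.

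Housekeeping lists had medians near that of all genes. Their shares past 1.5-fold were mostly below the 10.8% higher and 10.6% lower of all genes. Mitochondrial respiratory chain genes had 1 higher and 1 lower of 49 (median 0.04), the proteasome 1 and 0 of 32 (0.02), and the spliceosome and hnRNP genes 2 and 2 of 36 (0.01). Cytosolic ribosomal protein genes had 0 higher and 3 lower of 28, and 21 of 28 were below 0, with a median of -0.14 beside -0.01 between the control pools. Cell cycle and DNA replication genes had 2 higher and 3 lower of 31 (median -0.06). The lower members were the cyclins Ccnd1, Ccnd2 and Ccnb2, and Ccnb2 gave 1109, 2039 and 1906.

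Chromatin genes had 2 higher and 5 lower of 24, with a median of -0.10. The lower ones were Suz12, Bmi1, Cbx2, Smarca2 and Smarcd3. Among the Polycomb members of the list, Suz12 gave 70.7, 124 and 132, Bmi1 101, 157 and 205 and Cbx2 (192, 431, 364) and (102, 149, 168). The knockout was the lowest pool in each of these 4 sets. The other measured Polycomb members did not pass the threshold, with Ezh2 at -0.34, Eed at 0.20, Rnf2 at 0.24 and Phc1 at 0.11 on the log2 scale. Ring1 was above the floor in the knockout alone. The higher members were Dnmt3a and Dnmt3b. Imprinted growth genes had 0 higher and 1 lower of 14 (median 0.06), cholesterol synthesis 3 and 0 of 16 (0.03), p53 and apoptosis 1 and 1 of 12 (0.18), hypoxia and glycolysis 2 and 1 of 19 (0.10), and the interferon response 1 and 1 of 7 (0.10). Fdft1, or squalene synthase, gave 296, 138 and 176, 2.14-fold higher. Stat2, an interferon signal carrier, had sets at (95, 1096, 1148) and (119, 136, 85.7), so the large difference rested on 1 of 2 sets.

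**Figure D3:**
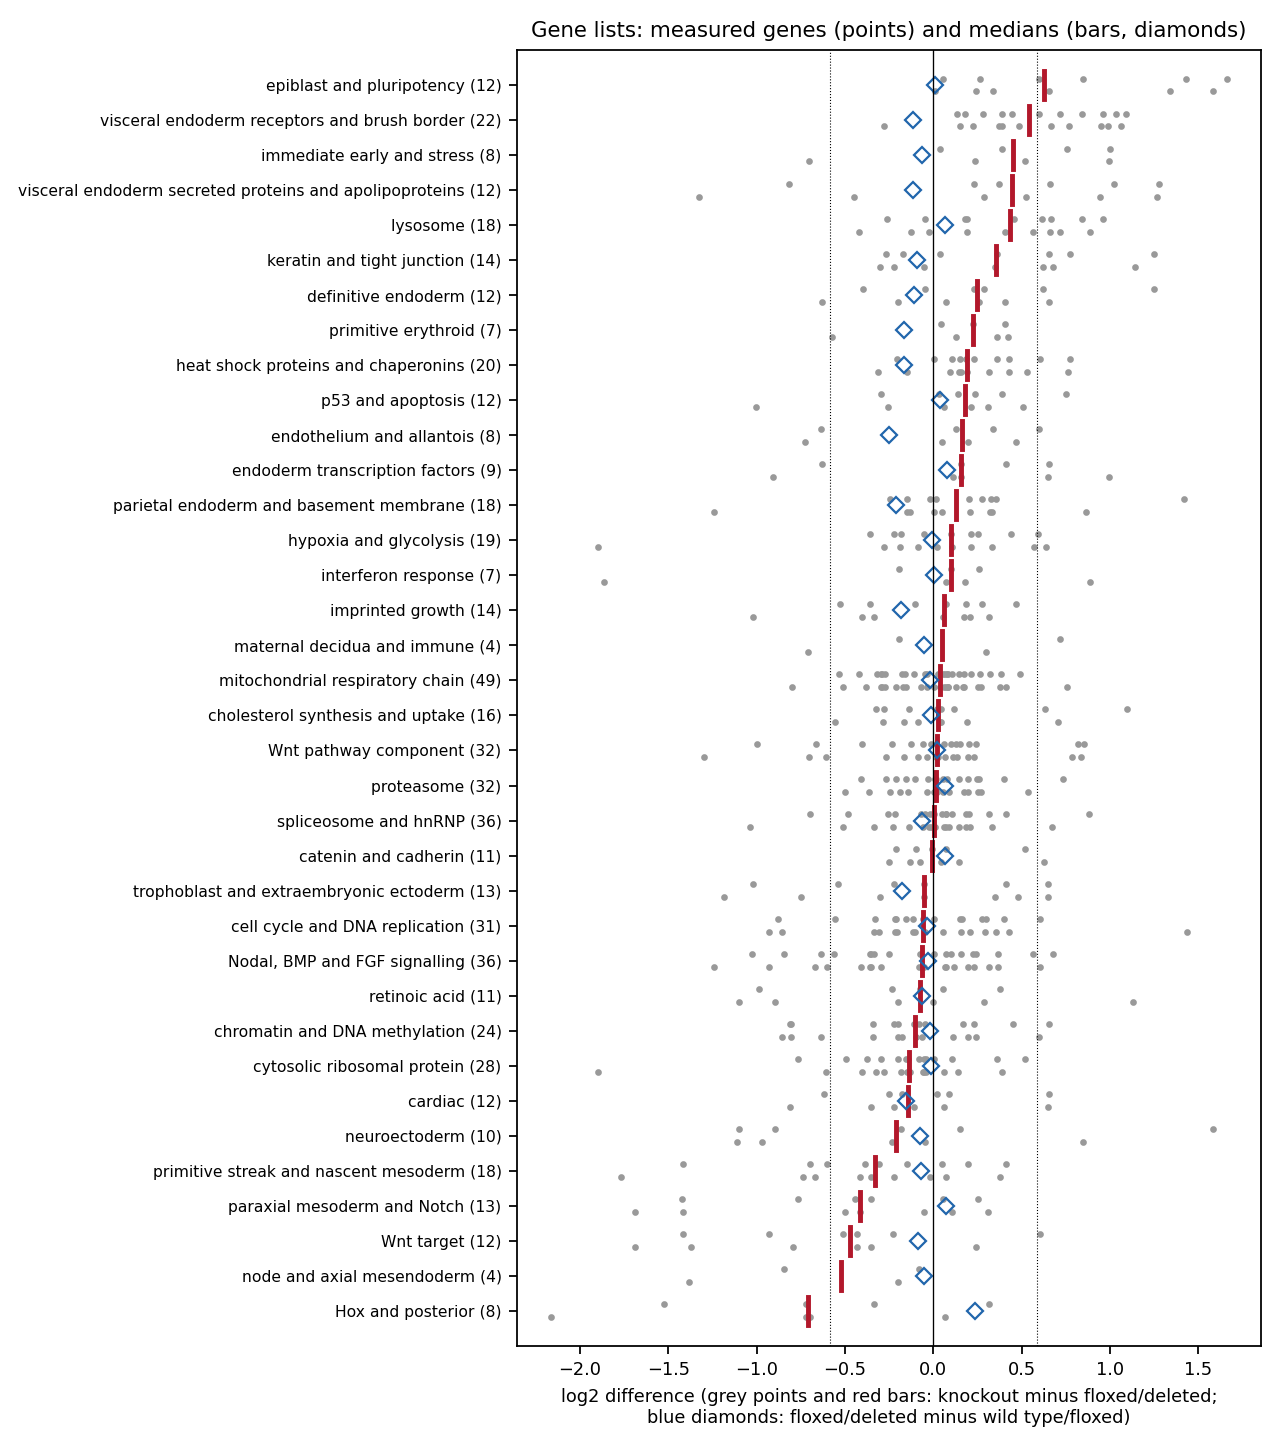
Log2 difference between pools for the 36 lists with 4 or more measured genes (number in brackets). Grey points are genes and red bars the list medians for knockout minus floxed/deleted, blue diamonds are list medians for floxed/deleted minus wild type/floxed, and dotted lines mark 1.5-fold. Red bars run from -0.71 for Hox and posterior genes to 0.63 for epiblast genes, while the blue diamonds lie between -0.25 and 0.24.

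Genes above the floor in a single pool are outside all these counts, and a gene that dropped below the floor in the knockout is among them. Over all designs 3189 one-symbol probe sets were above the floor in floxed/deleted alone and 2632 in the knockout alone. For those well above it, the ratio of the signal to the floor is given as a least fold. It describes the measured signals, carries no error and does not treat the floor as a limit of detection. The rule that picked these sets fixed the direction of each. Twist1, a mesodermal factor, gave 21.1, 161 and 187, at least 2.81-fold lower. Gbx2, a homeobox gene of posterior ectoderm, gave 7.3, 153 and 239 (at least 2.67-fold lower), and Shh, the ligand made by the node and notochord, gave 10.6, 126 and 90.8 (at least 2.19-fold lower). Tcf15, a factor of somite precursors, gave 17.8, 99.8 and 135, at least 1.74-fold lower. In these genes both control pools were above the floor.

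In the other direction Nepn, a proteoglycan gene of gut endoderm, gave 205, 38.2 and 30, at least 2.53-fold higher, and Esrrb, an orphan receptor of extraembryonic ectoderm, gave 191, 55.1 and 87.5, at least 2.36-fold higher. Foxa2, a forkhead factor of node and endoderm, gave 141, 33.8 and 122, so that the low pool was floxed/deleted. These genes are named here after their values were seen.

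Some genes described above also had a set above the floor in 1 pool only, which pointed the other way. They were Dll1 on C with 87, 5 and 19, Hoxb4 on C with 227, 72.5 and 242, Fgf8 on A with 112, 10.2 and 56.3 and Crabp2 on C with 149, 63.6 and 147. Fzd6 on A, with 62.8, 24.4 and 18.3, and Muc13 on C, with 67.3, 92 and 32.2, did so as well. Gata6 had a member set on C that was lower in the knockout, with 112, 175 and 57.2.

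Agreement between probe sets of a gene was weak over the whole comparison. For 1376 genes whose brightest 2 member sets were both on A or B, Pearson's r between their log2 differences was 0.08 across genes, and 53.5% lay in the same direction. With 1 or both sets on C, r was 0.10 over 1152 genes. Genes are not independent replicates and the sets of a gene share the pools and, in part, the arrays. Where the brighter set on A or B was at least 1.5-fold from the floxed/deleted pool, 140 of 244 genes had the other set in the same direction. For 107 genes whose dimmer set was at least 8 times the floor, r was 0.25. For floxed/deleted against wild type/floxed, r was -0.02 over 1364 genes with both sets on A or B.

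**Figure D4:**
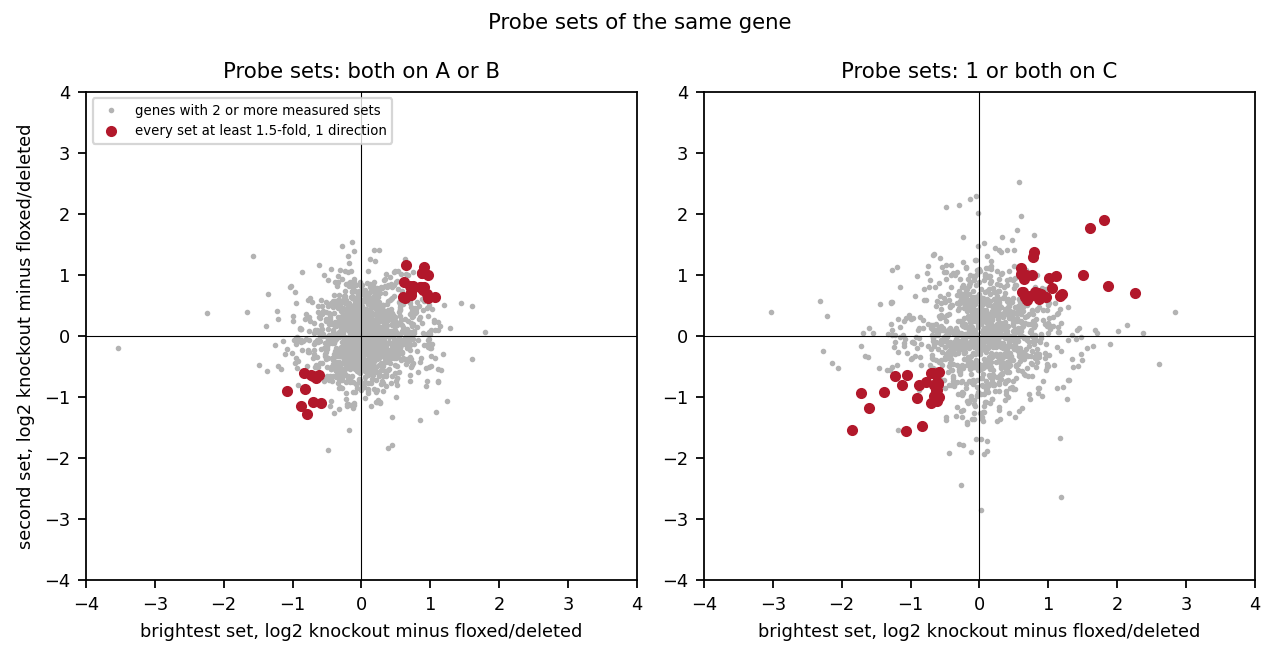
Log2 difference, knockout minus floxed/deleted, of the brightest (x axis) and the next brightest (y axis) member probe set of each gene, with both sets on design A or B (left, 1376 genes) and with 1 or both on C (right, 1152 genes). Red points are the 84 genes whose every member set passed 1.5-fold in 1 direction. The grey cloud shows little slope and is wider on the right.

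Among the 48 genes higher in every member set, the brightest were Apoa1 and Amn. Others with both control pools below the knockout in each member set included Muc13, Nav2, Tmcc3 and Nup153. The Muc13 set on C described above was not a member and pointed the other way. Nav2, a neuron navigator protein, gave 561, 304 and 329 on A and 458, 223 and 297 on B, 1.95-fold higher on average. The nuclear pore gene Nup153 gave (309.5, 152, 218) and (608, 399, 365). Fam221a and Trappc11 had the largest means, 3.61-fold and 3.43-fold. For Fam221a 1 of its 2 sets, both on C, gave 329, 88.2 and 362, so that the wild type/floxed pool was above the knockout.

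Among the 36 genes lower in every member set, Ccnd1, Med22, Zfp637 and Ulk1 were among those lowest in the knockout in each member set. The further Ccnd1 set on A, below the floor in the floxed/deleted pool, pointed the other way. Med22, a Mediator subunit, gave (368, 777, 547) and (122, 226, 237), 1.98-fold lower on average. Ulk1, a kinase that starts autophagy, gave (103, 181, 182) and (97.3, 178, 142), 1.79-fold lower. Foxd2, a forkhead gene, gave (135, 233, 152) and (101, 245, 251), 2.05-fold lower. Other genes of this group were set by a high floxed/deleted pool. Smox, spermine oxidase, gave 145, 328 and 53.2 on B, and Chrm3, a muscarinic receptor, (149, 281, 34.3) and (138, 278, 34.4) on C, with wild type/floxed the lowest.

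The same held for the widest differences on a single set. Of the 8 largest in each direction, Bcl11a, a zinc finger factor, gave 453, 102 and 195, 4.45-fold higher, and Kdm6b, a histone H3 demethylase, 627, 217 and 257, 2.9-fold higher. Both control pools were below the knockout there. For Lbhd2 (464, 114 and 546) and the hair keratin Krt81 (178, 58.2 and 249.6), by contrast, the wild type/floxed pool was the highest. In the lower direction Ddit4, an inhibitor of mTOR signalling, gave 58.1, 217 and 209.8 and Ctif, a translation factor, 240.1, 915 and 876, 3.73-fold and 3.81-fold lower. Vasn, at 159, 826 and 128, and Samd14, at 90.1, 355 and 128, had a wild type/floxed pool near or below the knockout, and so had B9d2, at 96, 375 and 121.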

How the data were processed

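Total RNA from 3 pools of embryos was hybridised to 3 Affymetrix designs, 1 array per pool and design. The values the authors deposited are intensity, linear, with 1 value per probe set. The sources used here do not state how probes were summarised, labelled or scaled. Precision is limited by the number of arrays.

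Arrays of a design were scaled to equal trimmed means (2% left out at each end). Members lay above the pooled median of their design in both pools, with 1 symbol in the platform annotation, checked against the RefSeq table of GRCm38.p6 (87 probe sets had a gene absent from it, and no name was updated). With 1 array on each side no test was possible, so calls are folds of 1.5 (genes) or 2 (probe sets). Control probe sets with a mouse symbol were kept, for example for Tfrc. The comparison, the 37 lists and the motifs were chosen with earlier results of these data known. The rule for named genes took Ctnnb1 and Krt19, the 15 widest agreeing genes and the 8 widest single-set genes per direction (design A or B, no suffix for shared probes, no clone names), and per list up to 4 per direction past 1.5-fold and its 3 brightest others. Agreement of sets ranked them by signal over the floor. Alternatives were equal medians, quantile scaling, floors at the 30th and 70th percentile, no sets with shared-probe suffixes, the brightest set per gene, designs A and B alone, and wild type/floxed as the control. The count of probe sets past 2-fold returned the changes put into a copy of the floxed/deleted arrays with no noise added. That outcome was fixed in advance, so it checks the code and not the reliability of a call. The gene and agreement rules were not run in it. Python 3.11.15, numpy 2.4.6, pandas 2.3.3 and matplotlib 3.10.9 were used.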

Additional observations from a re-analysis of the deposited data

How the results depend on the processing

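Over the alternatives, 27 counts kept within 1.5 times their value and 19 did not. With designs A and B alone, 205 probe sets were 2-fold higher and 225 lower, and 22 genes had agreeing sets higher and 17 lower. Equal medians gave 78 agreeing genes higher and 20 lower. Without sets of shared-probe suffix, 28 agreed higher. A floor at the 30th percentile gave 1769 genes higher and 1940 lower at 1.5-fold, 98 and 114 with agreeing sets, and 1413 and 1570 probe sets at 2-fold. A floor at the 70th percentile gave 513 and 374 genes, 20 and 6 with agreeing sets, and 160 and 106 probe sets. These floors admit more or fewer dim probe sets by construction. No list median past 0.3 changed sign. Each was set against the design B standard deviation between the control pools (0.54) divided by the square root of its number of measured genes. This treats genes as independent, and 244 medians moved by less than it and 50 by more. Values of named genes were set against the undivided standard deviation, 0.54, or 0.79 for genes measured on design C alone. Of these values, 1777 stayed within it, 50 moved beyond it and 27 changed direction. With wild type/floxed as the control, the log2 difference was 0.032 for Asb7, -0.10 for Gata4, -0.022 for Gata6, 0.61 for Hes5, -0.088 for Hnrnpk, -0.49 for Krt81, -0.23 for Lbhd2, -0.59 for Mcm6, -0.18 for Slc16a1, 0.14 for Smarca2, 0.056 for Tfap2c, 0.37 for Tle4 and 0.31 for Vasn. With the 30th percentile floor, which adds dim sets to a gene's mean, it was 0.32 for Ccnd1, -1.30 for Cox5a, -0.30 for Ctnnbip1, 0.20 for Cys1, 0.032 for Fzd6, 0.017 for Hoxa4, -0.19 for Slc39a10, 1.91 for Tle4 and -0.34 for Tmcc3. With the 70th percentile floor it was 1.27 for Bmpr2, -0.18 for Epcam, 0.10 for Lefty1, 0.41 for Mcl1 and 0.52 for Serpinf2. No paired analysis was possible because each pool had 1 array per design and no result comes from a test, and no replicate could be left out. With 1 pool on each side, embryo-to-embryo and hybridisation differences cannot be told apart from genotype.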
